A study of Mus musculus with 4 samples.

Results

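The complement factors followed here are 9 genes listed by symbol for their place in the complement cascade and their known expression in adipose tissue: Cfd, Cfb, Cfp, C3, C4b, C2, C1qa, C1qb and C1qc. Each gene was read from its brightest probe set, by mean log2 signal over the 4 arrays. Of the 9 genes 6 had a probe set annotated to that gene alone. C4b was covered by a probe set annotated to C4a and C4b together, which is given as C4a/C4b and cannot be assigned to C4b alone. Cfd, which encodes the adipose protease adipsin, and C3, the central component of the cascade, are not analysed here, because the annotation used here names no probe set for either. The 7 measured features were read among 18195 features in all, 18194 genes and the C4a/C4b probe set.

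The tissue was epididymal fat, a visceral depot next to the testis. It came from C57Bl/6J mice, 9 weeks old at the start, that ate a diet with 60% of its energy as fat for 21 weeks. The high-calcium whey diet contained 1.8% calcium and whey protein isolate and was measured on 2 arrays, replicates 1 and 2. The standard high-fat diet contained 0.4% calcium, with no protein source named in the labels, and was measured on 1 array. Calcium and whey therefore differed together between the diets, and all mice were fed a high-fat diet. Another array carries labels that do not settle its diet, although the stated number of mice per diet would leave it a standard one. It is called the unassigned array, its values are given singly and it entered no comparison. The study fed 10 mice per diet and profiled 2 of each, and each array was taken as 1 mouse. With 1 standard array a difference between diets cannot be told apart from a difference between that array and the others.

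Complement is a cascade of plasma proteins that tags particles and dying cells for removal. C1q, built from the products of C1qa, C1qb and C1qc, starts the classical pathway, in which C4 and C2 form the protease that cleaves C3, and in the alternative pathway factor B, activated by adipsin and stabilised by properdin, does the same. In adipose tissue adipsin is a product of fat cells, whereas C1q is made mainly by macrophages.

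Several facts of the whole series touch these genes. With so few arrays, their number sets the precision of every value. High-calcium replicate 1 stood apart from the other arrays, with a median signal of 0.0963 against 0.0585 to 0.0628. The summed signal of 7 smooth muscle markers was 67.1 on replicate 1 and 7.16 to 10.1 on the other 3 arrays. A feature was taken as above background where it exceeded the median of its array, and all 7 complement features did so on all 4 arrays, the smallest margin being 2.86 log2 units for Cfp. The labelled tissue carried its fat cell markers, as 11 of 11 measured markers of mature adipocytes were above background on all 4 arrays, with summed signals of 172.9 to 201.3. The diets were compared with limma, adjusted by the Benjamini-Hochberg method over all 18195 features. This test called 0 of the 7 complement features at an adjusted p under 0.05, beside 0% of all features, and each of the 7 had an adjusted p of 0.9999. At an unadjusted p under 0.05 there were 0 of the 7 and 898 of all features, and limma with a variance trend and robust estimation called 0 of the 7 and 6 of all features.

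**Figure D1:**
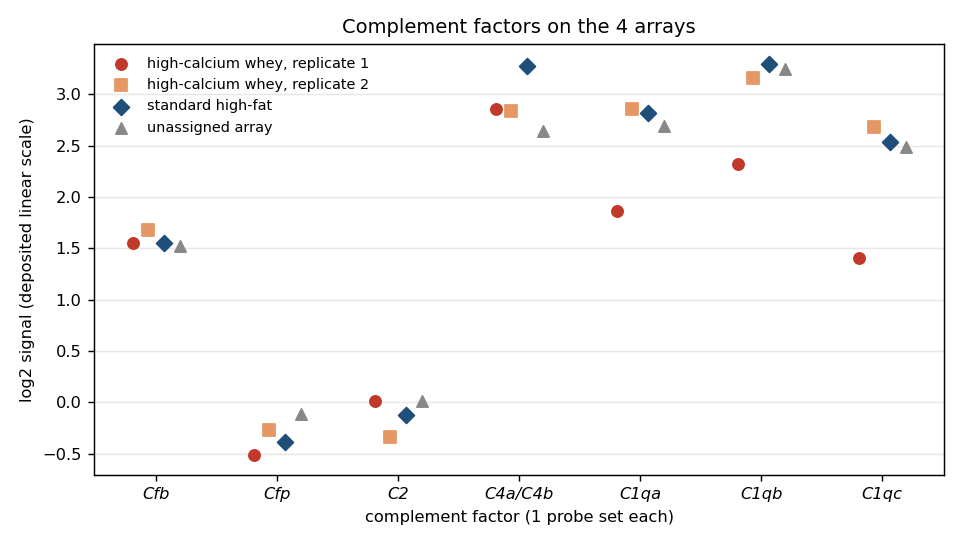
Log2 signal (vertical axis, deposited linear scale) of the 7 measured complement features (horizontal axis), with 1 point per array. C1qa, C1qb and C1qc were lowest on high-calcium replicate 1, at 1.86, 2.32 and 1.40, and C4a/C4b was highest on the standard array, at 3.27. Heights of different genes are not comparable, because each probe set has its own response.

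The 3 chains of C1q, the recognition protein of the classical pathway, were all about 1 log2 unit lower on high-calcium replicate 1 than on the standard array, and close to the standard array on replicate 2. For C1qa the log2 signal was 1.86 on replicate 1 and 2.85 on replicate 2, beside 2.81 on the standard and 2.69 on the unassigned array. C1qb had 2.32, 3.15, 3.30 and 3.24 on the same arrays in turn. C1qc had 1.40, 2.68, 2.54 and 2.49. In each of the 3 genes replicate 1 was thus the low array, and the other 3 lay within 0.16, 0.14 and 0.19 log2 units of each other.

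Against the standard array C1qa was 1.94-fold, C1qb 1.97-fold and C1qc 2.20-fold lower on replicate 1. On replicate 2 C1qa differed by 0.036, C1qb by -0.14 and C1qc by 0.14 on the log2 scale. Averaged over the 3 chains, replicate 1 differed from the standard array by -1.02, replicate 2 by 0.012 and the unassigned array by -0.075 on the log2 scale. The differences share the standard array. The mean over both high-calcium arrays was -0.46 for C1qa (SE 0.64, 95% interval -2.84 to 1.92), -0.56 for C1qb (SE 0.56, -2.65 to 1.54) and -0.50 for C1qc (SE 0.79, -3.41 to 2.42). The SD between the 2 high-calcium arrays was 0.70, 0.59 and 0.90 in the same order, larger than the difference between the diets in each case. Without replicate 1 the direction turned for C1qa (0.036) and C1qc (0.14), and the difference of C1qb became -0.14.

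Replicate 1 was at least 1.5-fold lower than replicate 2 for 3 of the 7 complement features, the 3 C1q chains, and for 5.4% of the 10464 features above background on all 4 arrays. The 3 chains' differences from the standard array lay within 0.18 of each other on replicate 1, within 0.29 on replicate 2 and within 0.073 on the unassigned array. The other C1qb probe sets gave the same picture. Probe set 1417063_at read 2.20 on replicate 1, 3.28 on replicate 2 and 3.20 on both other arrays. Probe set 1434366_x_at read 1.40 and 2.18 on the replicates, 2.30 on the standard and 2.27 on the unassigned array. The sign on replicate 2 therefore depended on the probe set for C1qb, while that on replicate 1 did not.

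**Figure D2:**
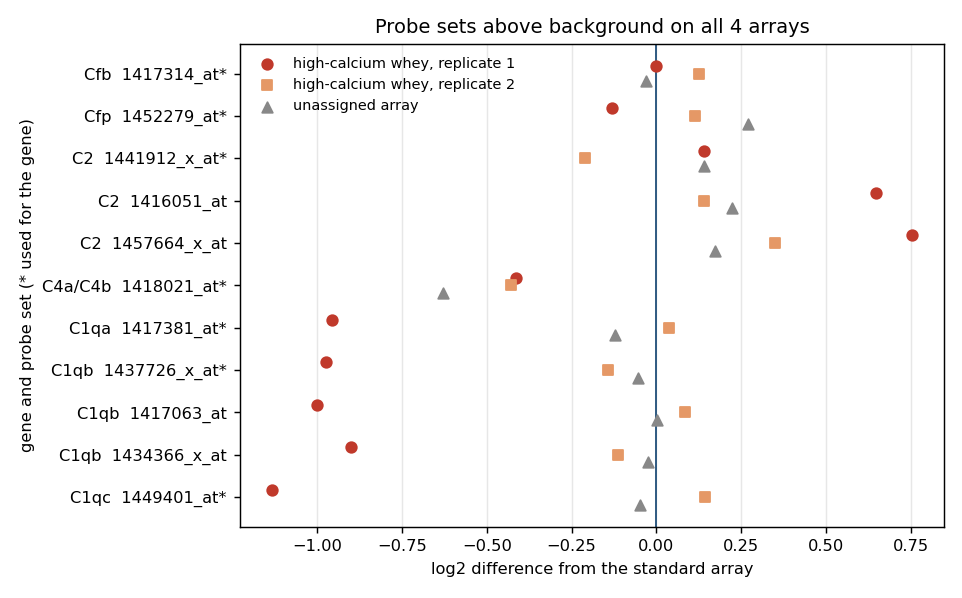
Log2 difference from the standard array (horizontal axis, standard array at 0) for every complement probe set above background on all 4 arrays (vertical axis), with a point each for high-calcium replicates 1 and 2 and the unassigned array. All 5 C1q probe sets lie between -0.90 and -1.13 on replicate 1, the C4a/C4b probe set lies below 0 on all 3 arrays, and the 3 probe sets of C2 disagree.

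The 3 C1q genes lie side by side on mouse chromosome 4, with 0 protein-coding genes between C1qb and C1qc and 0 between C1qc and C1qa in the RefSeq gene table. Because the chains shared 1 pattern over the arrays, the 250 bases before the transcription start are shown for C1qb and C1qc, the members of the trio for which RefSeq (GRCm38.p6) promoters were given. They lie on the minus strand at chr4:136886201-136886450 and chr4:136892915-136893164 and are written 5′ to 3′ on the strand of the gene, with the motif matches found in capitals.
C1qb: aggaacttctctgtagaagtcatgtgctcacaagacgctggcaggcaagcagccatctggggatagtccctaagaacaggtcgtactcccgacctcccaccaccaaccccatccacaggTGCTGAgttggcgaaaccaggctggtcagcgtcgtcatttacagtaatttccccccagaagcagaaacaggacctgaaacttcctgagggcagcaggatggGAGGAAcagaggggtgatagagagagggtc
C1qc: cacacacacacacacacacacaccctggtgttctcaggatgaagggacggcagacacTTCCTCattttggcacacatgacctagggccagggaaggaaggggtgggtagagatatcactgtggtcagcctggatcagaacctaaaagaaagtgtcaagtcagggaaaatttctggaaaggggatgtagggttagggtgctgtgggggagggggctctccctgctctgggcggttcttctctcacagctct

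The letters of 5 motifs were searched on both strands. GAGGAA, a core bound by PU.1 and other ETS factors of myeloid cells, was found once in each promoter, at 30 bases before the start of C1qb and, on the other strand, at 193 bases before that of C1qc. TGCTGA, a site for MAF factors, was found at 131 bases before the start of C1qb. TTCNNNGAA, bound by STAT factors, the site of interferon regulatory factors and the TATA box TATAAA had 0 matches in both windows. Of 32851 promoter windows of the same length 23.3% held GAGGAA, 16.1% TGCTGA, 7.02% TTCNNNGAA, 2.98% the interferon regulatory factor site and 12.4% TATAAA. The TGCTGA and GAGGAA matches did not overlap. A match is a run of letters and not a shown binding site.

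Macrophage markers moved with C1q. Of 15 markers, all above background on all 4 arrays, 14 were lower on replicate 1 than on the standard array, 7 were lower on replicate 2 and 3 on the unassigned array. Of all features above background 42.6% were lower on replicate 1 and 49.1% on replicate 2. On the unassigned array 5570 of these 10464 features were lower. The summed signals of the macrophage markers were 59.3 and 99.7 on replicates 1 and 2, 93.9 on the standard and 99.8 on the unassigned array. Their median log2 differences from the standard array were -0.81, 0.078 and 0.13 on replicates 1 and 2 and the unassigned array. Lyz2, lysozyme, differed by -0.32 on replicate 1 and 0.15 on replicate 2, the protease Ctss by -0.62 and 0.082, and Tyrobp, a signalling adaptor of myeloid receptors, by -0.80 and 0.22. The haptoglobin receptor Cd163, at 0.61 on replicate 1, was the exception and was chosen after its value was seen. Markers of other cells moved on replicate 1 too: 8 of 9 fibroblast markers were lower, with Dcn, decorin, at -0.35, Col3a1, a fibrillar collagen chain, at -0.027 and Dpt, dermatopontin, at -1.07, while 4 of 4 B-cell, 4 of 4 T-cell, 8 of 8 mesothelial and 7 of 7 smooth muscle markers were higher. Of these markers 1 B-cell, 2 T-cell, 5 smooth muscle and all 8 mesothelial ones were above background on all 4 arrays. Of all features, with those under background, 36.6% were lower on replicate 1 than on the standard array. The part of these cell types in the C1q values was not tested. In bulk tissue fewer cells of a type and less RNA per cell cannot be told apart.

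**Figure D3:**
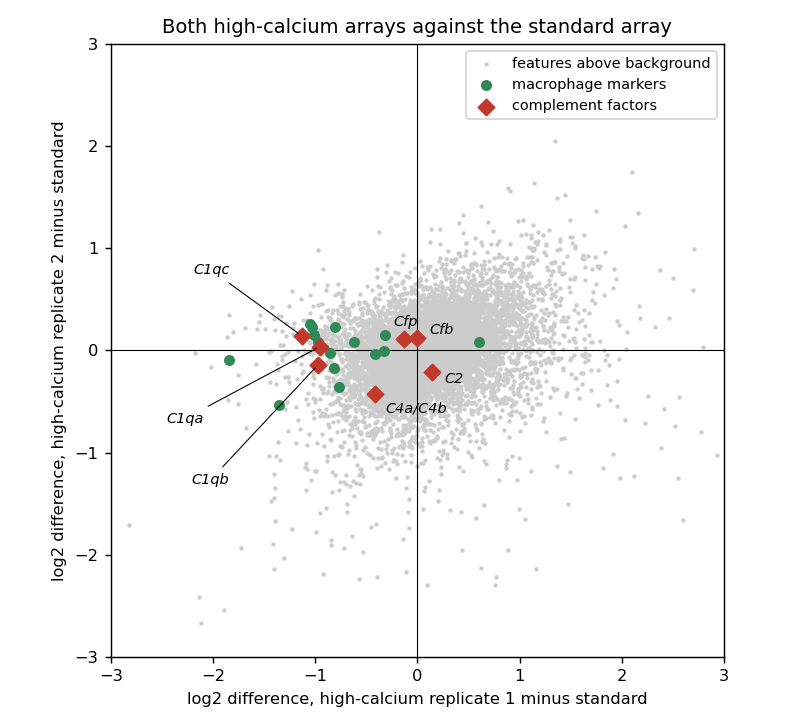
Log2 difference from the standard array on high-calcium replicate 1 (horizontal axis) and replicate 2 (vertical axis) for 10451 of the 10464 features above background (grey; 13 lie beyond the axes), 15 macrophage markers (green) and 7 complement features (red). The C1q chains lie near -1 on replicate 1 and 0 on replicate 2, and C4a/C4b lies at -0.41 and -0.43. The macrophage markers have medians of -0.81 and 0.078 and spread from -1.84 (Trem2) to 0.61 (Cd163) on replicate 1. Both axes share the standard array, so a spread along the diagonal holds the error of that array.

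C4, the thioester protein that C1 cleaves to tag a surface, was the factor with the closest values on the high-calcium arrays. The C4a/C4b probe set read 2.86 and 2.84 (log2) on replicates 1 and 2, beside 3.27 on the standard and 2.64 on the unassigned array. The standard array was the highest of the 4, and the high-calcium arrays lay 1.33-fold and 1.35-fold below it. Their gap of 0.016 was small beside the mean difference of -0.42. With limma's pooled spread that difference had an SE of 0.32, a 95% interval of -1.60 to 0.76 and an unadjusted p of 0.297, and it did not pass the test. The unassigned array was lower still, 1.55-fold below the standard array, so the high value belonged to 1 of 4 arrays. The accession listed for the probe set is that of a C4b transcript in RefSeq, and C4a, a near copy listed there as a transcribed pseudogene, shares the probe set.

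Markers of duct epithelium, a list chosen with earlier results of these data known, had their own pattern on these arrays. Of 6 measured markers of epididymis and duct 2 were above background on all 4 arrays, Adgrg2 and Fbp1, and both were highest on the standard array as C4a/C4b was: Adgrg2, a receptor of the efferent ducts, had log2 differences of -2.23, -3.45 and -2.87 from it on replicate 1, replicate 2 and the unassigned array, and Fbp1, fructose-1,6-bisphosphatase, of -3.04, -3.56 and -3.51. Over all 6 markers 3 were lower and 1 higher on both high-calcium arrays, beside 23.9% and 38.6% of all features. The summed signal of the 6 was 10.1 on replicate 1, nearly all of it Defb42 at 9.55, and 0.311 on replicate 2. On the standard and the unassigned array it was 4.34 and 0.428. Most endothelial markers were also lower than on the standard array, 5 of 7 on replicate 1, 6 of 7 on replicate 2 and 6 of 7 on the unassigned array. Their summed signals were 3.87 and 2.93 on replicates 1 and 2, 4.73 on the standard and 3.09 on the unassigned array. Sox18, an endothelial transcription factor, lay at -1.06, -0.82 and -0.70 on replicates 1 and 2 and the unassigned array. Cldn5, also among the brightest markers of this list, differed by 0.24 on replicate 1 and -0.75 on replicate 2. The part of these cells in the C4 value was not tested. Of all features above background 42.6% were lower on replicate 1 and 49.1% on replicate 2. On the unassigned array 5570 of these 10464 features were lower. Of 7 hepatocyte markers 1, Alb, was above background on all 4 arrays, with summed signals of 0.204 to 0.907 in which the standard array was the second highest at 0.505.

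C2, the protease of the classical pathway that pairs with C4, gave values that depended on the probe set. The brightest, 1441912_x_at, read 0.018 and -0.33 (log2) on replicates 1 and 2, beside -0.12 on the standard and 0.018 on the unassigned array. The high-calcium arrays lay on either side of the standard array, with a mean difference of -0.035 (SE 0.37, 95% interval -1.42 to 1.35). Probe set 1416051_at lay above the standard array by 0.65 and 0.14 on the replicates, and probe set 1457664_x_at by 0.75 and 0.35. On both of these the standard array was the lowest of the 4. Replicate 1 was the highest array on these 2 probe sets. Taken over all probe sets of the gene the mean difference was 0.30, so no direction can be given for C2.

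Cfb, the protease zymogen of the alternative pathway, was steady over all 4 arrays. It read 1.55 and 1.68 (log2) on replicates 1 and 2, beside 1.55 on the standard and 1.52 on the unassigned array, a range of 0.16. The mean difference between the diets was 0.061 (SE 0.33, 95% interval -1.15 to 1.27), and it turned to -0.26 with every array's median set to 0. Cfb is the immediate neighbour of C2 on chromosome 17, with 0 protein-coding genes between them and 5 between C4b and Cfb in the RefSeq table. These neighbours did not share a pattern as the C1q genes did.

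Cfp, the gene of properdin, which stabilises the alternative pathway's convertase and is made by myeloid cells, was also close between the diets. It read -0.51 and -0.27 (log2) on replicates 1 and 2, beside -0.38 on the standard and -0.11 on the unassigned array. The standard array lay between both replicates, and the diets differed by -0.0078 on average (SE 0.35, 95% interval -1.29 to 1.28). The difference was -0.34 when both Cfp probe sets were averaged and -0.32 on median-centred arrays. Replicate 1 was the lowest array here too, at -0.13 from the standard array against -1.02 for the mean of the C1q chains. The second Cfp probe set, 1447537_at, was above background on 1 of 4 arrays and gives no usable difference. Of 5 measured neutrophil markers 1, S100a8, was above background on all 4 arrays, and it differed from the standard array by -1.08 and -1.16 on the high-calcium arrays. Over the 5 markers 1 was lower and 3 were higher on both high-calcium arrays, so the list had no common direction. S100a8 had an adjusted p of 0.9999 in limma and of 0.043 with a trend and robust estimation, and Fbp1 of 0.977 and 0.035.

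Counted together, 2 of the 7 complement features, C4a/C4b and C1qb, were lower on both high-calcium arrays than on the standard array, beside 23.9% of all features and 27.1% of those above background. None of the 7 was higher on both arrays, where 38.6% of all features and 35.4% of those above background were. The counts at least 1.5-fold lower and at least 1.5-fold higher on both arrays were 0 of 7. Of all features 4.49% and 12.7% passed, and of those above background, as all 7 are, 1.12% and 2.11%. The median difference between the diets was -0.42 over the 7 features and 0.079 over all features, but the 7 fell in separate sets: C4a/C4b and the C1q chains between -0.56 and -0.42, and Cfb, Cfp and C2 between -0.035 and 0.061. Without the C1q chains the median was -0.022. On replicate 1 the median was -0.41 and on replicate 2 0.036, so replicate 1 decided it. On median-centred arrays the median over the 7 was -0.74 and that over all features -0.24. The share lower on both arrays was near the background.

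The rest of the cascade was covered by 39 measured genes out of 46 listed. On all 4 arrays 22 of these exceeded background. limma called 0 of the 39, also with a trend and robust estimation, with 3 at an unadjusted p under 0.05. Of these 3, Hc and Masp2 were above background on 0 of 4 arrays and Cfi on all 4. The matching count over all features is given above. Of the 22 genes above background 8 were lower and 3 higher on both high-calcium arrays, beside 27.1% and 35.4% of all features above background. The 22 genes had a median difference of -0.16, against 0.030 over all features above background. C7, a part of the membrane attack complex, is not analysed here.

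Of 8 measured complement receptors 7 were lower on replicate 1 than on the standard array and 2 on replicate 2, beside 36.6% and 48.6% of all features. The receptors' median differences were -0.81 and 0.14. C3ar1, the receptor of the C3a peptide, read 0.18 and 1.88 (log2) on the replicates, beside 1.55 on the standard and 2.05 on the unassigned array. C5ar1, the C5a receptor, had -2.80, -2.40, -2.40 and -1.99. Replicate 1 was the lowest array in both. Vsig4, a receptor of resident macrophages that binds C3 fragments, was instead highest on the standard array, with differences of -1.38, -1.03 and -0.84 on replicates 1 and 2 and the unassigned array.

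Initiating proteases that bind C1q were nearer to each other across the arrays. C1ra, a C1r protease, lay -0.18 and -0.015 from the standard array on replicates 1 and 2, and C1s1, a C1s protease, by -0.37 and 0.12. Fcna, a ficolin of the lectin pathway, was higher on both arrays, by 0.56 and 0.95, with a mean difference of 0.75 (SE 0.39). Among regulators Serping1, the C1 inhibitor, was steady, with log2 signals of 3.48, 3.57, 3.52 and 3.46 on replicates 1 and 2, the standard and the unassigned array. Cd55, which speeds the decay of convertases, differed by -0.28 and -0.27, Cd46, a cofactor for cleavage of C3b, by 0.26 and 0.29, and Cd59a, which blocks the membrane attack complex, by 0.17 and 0.20. Cd46 was near the floor, with a smallest margin over background of 0.29 log2 units, against 3.39 for Cd55 and 5.97 for Cd59a. Clu, clusterin, read 2.72 and 1.23 on the replicates and 2.23 on the standard array. Its replicates thus lay on opposite sides of the standard array.

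Cfi, the protease that inactivates C3b and C4b, had the largest difference among the complement genes above background on all 4 arrays. It read -2.99 and -3.53 (log2) on replicates 1 and 2, beside -0.87 on the standard and -2.41 on the unassigned array. Like Cd46, Cfi was near the floor, with a smallest margin over background of 0.39 log2 units. The standard array was the high one, as for C4a/C4b and for Adgrg2 and Fbp1, 2 of the 6 measured duct markers. The part of duct cells in the Cfi value was not tested, and the duct list was chosen with earlier results of these data known. The mean difference was -2.39 (SE 0.44, 95% interval -4.03 to -0.75, unadjusted p 0.022), and limma's adjusted p was 0.977. C6, a part of the membrane attack complex, differed by -0.78, -1.03 and -1.17 on replicates 1 and 2 and the unassigned array, and Vtn, vitronectin, by -0.42, -0.49 and -0.61. Hc, the gene of C5, was not above background on any array, so no fold is given.

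**Figure D4:**
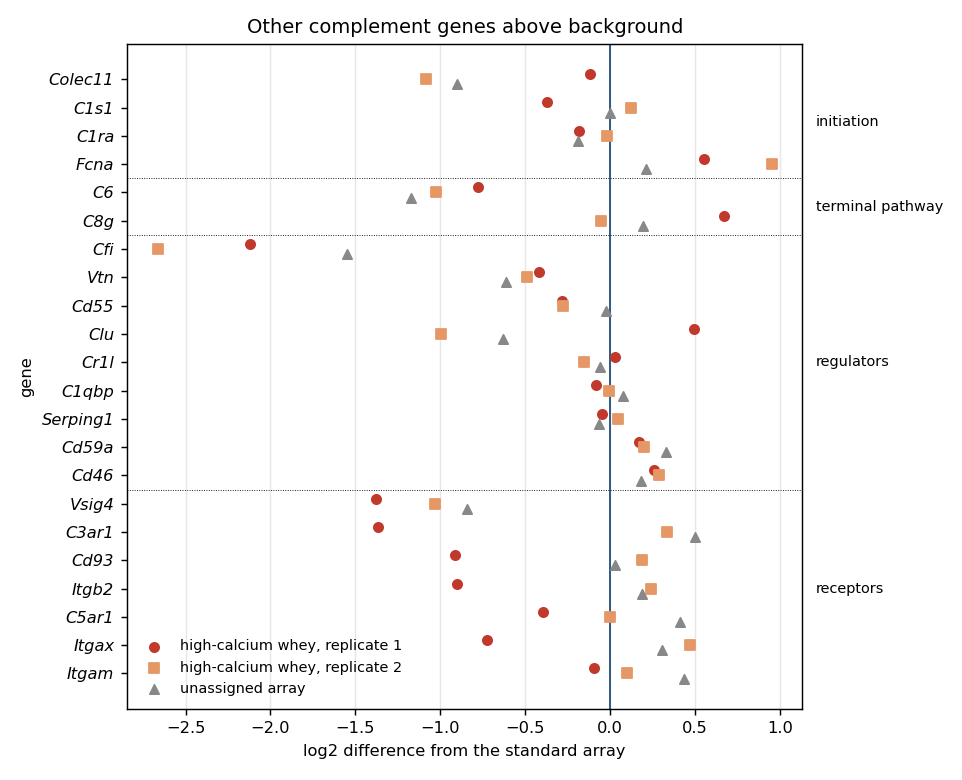
Log2 difference from the standard array (horizontal axis, standard array at 0) for the 22 other complement genes above background on all 4 arrays (vertical axis), grouped by role, with a point each for high-calcium replicates 1 and 2 and the unassigned array. Cfi, C6, Vtn and Vsig4 lie below 0 on all 3 arrays, and C3ar1, Cd93, Itgb2 and Itgax lie below 0 on replicate 1 and above 0 on the other arrays.

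Inflammation genes known to accompany complement in fat differed among themselves. Hp, haptoglobin, differed by -0.026 on replicate 1 and -0.22 on replicate 2, and Orm1, an acute phase protein, by 0.035 and 0.020. Saa3, a serum amyloid A of fat and macrophages, differed by -0.86 and -0.75, with -0.095 on the unassigned array. Of 10 such genes 3 were lower and 4 higher on both arrays, beside 23.9% and 38.6% of all features. On every array 7 of the 10 exceeded background.

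The genes most like a complement factor were taken as those with the smallest root mean square distance over the 4 arrays, each gene centred on its own mean, among features above background. For the mean of the C1q chains these were B4galt6, Cd9, Incenp, Cyp1b1 and Birc5, at distances of 0.030 to 0.045 log2 units. For C1qa the nearest was Cyp1b1 (0.026), for C1qb Rnf128 (0.015) and for C1qc Aopep (0.037). C4a/C4b was nearest to Fam207a (0.013), Tshz3 (0.024), Trib2 (0.025), Vtn (0.029) and Stat3 (0.030). With 4 arrays and 10464 features many patterns lie close, and the distances are a description only.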

How the data were processed

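Per the labels, total RNA was labelled with biotin and read on Affymetrix Mouse Genome 430 2.0 arrays. The deposited values are linear intensities for 45101 probe sets; the submitters' processing notes name RMA with no version, and the authors' scaling is not stated in the labels. They were log2 transformed with no added constant and no further normalization. Of the probe sets 34958 had 1 gene symbol in the platform annotation, 932 several and 9211 none; 34754 matched RefSeq by Entrez identifier. The 2 high-calcium arrays were compared with the 1 standard array with limma 3.58.1 (R 4.3.3; lmFit, then eBayes; two-sided; threshold 0.05), with 1 residual degree of freedom and 2.38 after moderation; the fit assumes that the lone standard array varies like the others. The procedure was tested on simulated data in which all features had the same SD, and only the mean estimated differences had to pass. That does not show how the comparison behaves where the spread differs between features. Members and lists were chosen with earlier results of these data known. Named were all members, complement genes above background on all arrays with the same sign on both high-calcium arrays (up to 4 per direction), a fixed set of cascade genes, and the brightest markers of lists whose values bear on a member. Median differences of the T cell, germ cell and mesothelial marker lists on replicates 1 and 2 were 1.11 and -0.25, 0.26 and -2.60, and 1.12 and 0.50. RefSeq promoters were given for 5 of the 9 genes. Alternatives were other probe set rules, quantile normalization, median centring, an added constant, a filter, a trend with robust estimation and leaving out arrays. Figures used matplotlib 3.10.9.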

Additional observations from a re-analysis of the deposited data

Results flagged for a closer look

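On the unassigned array, which entered no comparison, 6 of 29 complement features above background had a signal higher than the standard array by more than the SD between the high-calcium arrays. Among the factors this was Cfp, at 0.27 log2 units above the standard array. Among the other complement genes Itgam, an integrin chain of complement receptor 3, was higher by 0.43, C5ar1 by 0.41, Cd59a by 0.33, Cd46 by 0.18 and C1qbp, a mitochondrial protein that binds C1q, by 0.079. By the same measure 8 of the 29 were lower than on the standard array, with log2 differences from it: Cfi at -1.55, C6 at -1.17, Colec11, a collectin, at -0.90, Vsig4 at -0.84, C4a/C4b at -0.63, Vtn at -0.61, C1ra at -0.19 and Cd55 at -0.023. The other 15 lay within that SD, C3ar1 among them at 0.50 with an SD of 1.20. Cd55 and C1qbp passed with SDs of 0.0061 and 0.056. An SD of 2 arrays does not measure the error of a difference between other single arrays. No share over all features was taken by this measure. The smallest margins over background of Cd46 and Cfi were 0.29 and 0.39 log2 units. The differences on the unassigned array were not tested, because its diet is not settled.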

How the results depend on the processing

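Of 70 values of the 7 complement features under alternatives 61 kept their direction, and all adjusted p values lay above the threshold (0.9998 to 0.9999). The 61 include values that could not turn. The filter and the trend with robust estimation leave each difference as it was, and probe set rules do so for genes with no other probe set. Choosing the probe set over 3 arrays also returned the same values. C4a/C4b (-0.74 to -0.41) and C1qb (-0.97 to -0.14) kept their direction in these alternatives, all of which used the same lone standard array. C1qb probe set 1417063_at lay 0.084 above that array on replicate 2. C2 became 0.30 when its probe sets were averaged and 0.39 when probe sets of the shared types (_x, _s, _a) were dropped, Cfb -0.26 on median-centred arrays and Cfp 0.025 with the array median added. Leaving out high-calcium replicates moved C1qa between -0.96 and 0.036, C1qc between -1.13 and 0.14, Cfp between -0.13 and 0.11, Cfb between -0.0016 and 0.12 and C2 between -0.21 and 0.14. It moved the median of the 7 between -0.41 and 0.036, the number higher between 1 and 4, the number lower between 3 and 6 and the number at least 1.5-fold lower between 0 and 3. The median was -0.022 without the C1q chains, a choice made after seeing the data. The number higher on both arrays was 1 instead of 0 with the mean of probe sets, without shared probe sets, after quantile normalization, with the array median added and with either other C2 probe set. The number lower on both was 1 instead of 2 without shared probe sets and with C1qb probe set 1417063_at, and 3 on median-centred arrays. Over all features limma called 96 on median-centred arrays and 6 with a trend and robust estimation, and 0 of the 7 in both. Centring moved the median of all features from 0.079 to -0.24, that of the 7 from -0.42 to -0.74 and Cfp from -0.0078 to -0.32; averaging probe sets moved Cfp to -0.34. No paired analysis was possible, because the labels pair no mice across the diets and only 1 standard array was set against 2 high-calcium arrays. Signal over background was no limit for the 7 features; 17 of the 39 other complement genes were under background on at least 1 array.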
